A study of Mus musculus with 4 samples.

Results

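Gene expression in the dentate gyrus 48 h after the last of 10 electroconvulsive stimulations (ECS) was set against that of sham-treated mice. The comparison took every probe set of a mouse expression array with a single gene symbol and a signal over 50 units on at least 1 of the 2 arrays, with the array's control probe sets left out. These were 11715 of 22626 probe sets, and they stood for 7645 of 12393 gene symbols. Of the probe sets, 10954 were over the limit on both arrays, 554 on the sham array alone and 207 on the 10 ECS array alone. Just inside the limit was a probe set of Bbc3, with 49.6 units in sham and 50.1 after 10 ECS, and just outside it one of Nf2, with 42.9 and 50. Each gene was described by its brightest probe set among them.

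Both groups were C57Bl/6 mice with no transgene or deletion, and the study's methods give them as adult males. For each ECS a current of 25 mA was passed between clips on both ears of a mouse under isoflurane, with pulses of 0.5 ms at 100 per s over 1 s, and the course had 4 of these a week. In a sham session mice were handled and anaesthetised in the same way but received no current. Tissue of the sham group was taken 1 h after a single such session. The groups thus differed in the number of sessions of handling and anaesthesia as well as in current, and these cannot be told apart. By the study's account, the mice with 10 ECS also had a sham session 1 h before dissection, which no sample label states. RNA of the dissected dentate gyrus of 3 mice was pooled on each array, so that each group was 1 array with no replicate. A further pair of arrays, 1 h after 11 ECS and 1 h after a single ECS, shared no array with the first and also set a repeated course against none. Number of sessions and current differed together in this pair too. For 3 of the 4 arrays the free-text description goes against the title, source and treatment labels: the 10 ECS array is called vehicle-treated there, the single ECS array chronic ECS and the 11 ECS array chronic fluoxetine. Groups were taken from the titles, so the 48 h comparison and the 1 h pair both rest on them.

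The dentate gyrus is the entrance of the hippocampal circuit, and its main neurons are the granule cells, which send mossy fibres to the CA3 field. Granule cells are born throughout life and pass from an immature state, marked by doublecortin and calretinin, to a mature one marked by calbindin. A seizure switches on immediate early genes within minutes and, over a longer time, neuropeptide and growth factor genes. Repeated ECS is used in rodents as a model of electroconvulsive therapy.

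With 1 array in a group no test could be made, and the differences below describe these 2 pools of RNA. A gene was counted as higher or lower where its signals were at least 2-fold apart, with signals under 12 units raised to 12. The median log2 ratio of 10 ECS over sham was -0.14 over all genes, and 18 spiked hybridisation controls, which hold no mouse RNA, had a median of -0.13. The 10 ECS array was thus dimmer than the sham array. Sham was the brightest of the 4 arrays, with a median of 69.3 units over all probe sets besides controls. The 10 ECS array had 62.4, the single ECS array 56.3 and the 11 ECS array 56.7. The medians of gene groups are given below less the median of all genes. Signals of single genes and summed signals are given as deposited, without this correction. The log2 ratios of all genes had an SD of 0.285. Probe sets of 1 gene differed from each other with a pooled SD of 0.24 over 2735 genes, and of 0.16 over the 1185 genes with at least 200 units in each probe set. This spread covers the probes only and leaves out the variation between mice.

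Most genes differed little: 93.9% were within 1.5-fold of equal signal. Among probe sets, 36 were at least 2-fold higher 48 h after 10 ECS (0.307% of all) and 104 were at least 2-fold lower (0.888%). Among genes, 27 were higher (0.353%) and 47 lower (0.615%). The balance between the directions moved with the scaling of the arrays. After both arrays were brought to the same median, 38 genes were higher and 26 lower, so that higher genes made up 59.4% of those past the limit in place of 36.5%. Dim genes passed most often: of 1328 genes with at most 100 units on the brighter array, 12 were higher and 19 lower, while of 2792 genes over 400 units 5 were higher and 7 lower.

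**Figure D1:**
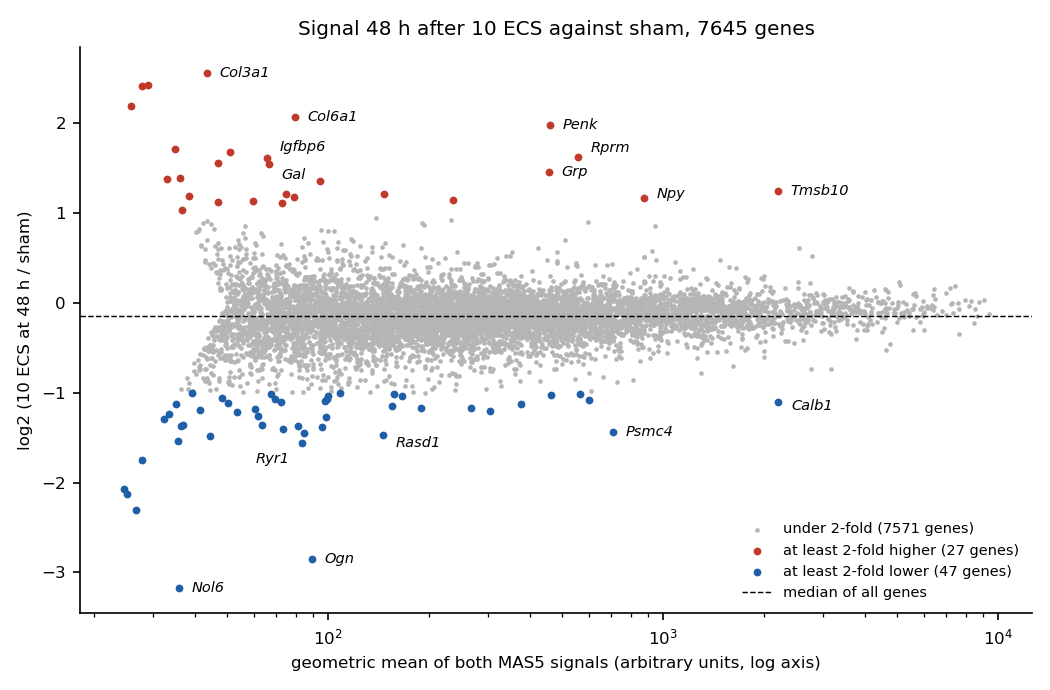
Log2 ratio of the 10 ECS array over the sham array (vertical axis) against the geometric mean of both MAS5 signals (horizontal log axis, arbitrary units), 1 point per gene. The 27 genes at least 2-fold higher and the 47 at least 2-fold lower are coloured, and the dashed line at -0.14 is the median of all genes. The scatter narrows to the right, where Tmsb10, Npy, Penk, Calb1 and Psmc4 stand apart.

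All 4 markers of granule cell maturity gave less signal 48 h after 10 ECS than in sham. Calb1, the calcium buffer calbindin, gave 3234 units on the sham array and 1507 on the 10 ECS array, 2.15-fold lower. Its dimmer probe set gave 305.9 and 109.9 units. Both probe sets of the gene were lower, and in the 1 h pair the single ECS array gave 2747 units and the 11 ECS array 1304. With the arrays brought to the same median, the log2 ratio of Calb1 was -0.92 in place of -1.10, short of 2-fold. Tdo2, which codes for tryptophan 2,3-dioxygenase, gave 290.2 units in sham and 158.3 after 10 ECS, 1.83-fold lower. Dsp, the junction protein desmoplakin, gave 1702 and 992.8 units, 1.71-fold lower. Il1r1, the receptor of interleukin 1, gave 241.0 and 165.0 units, 1.46-fold lower. These 4 genes are the maturation markers that the study itself followed, so they are no independent evidence of a direction. Their median log2 ratio relative to all genes was -0.68 at 48 h and -1.01 in the 1 h pair.

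Genes that mark granule cells at any stage differed less. Of 9 measured genes of granule cell identity, 8 lay below the median of all genes in both pairs of arrays. None of the 9 was past 2-fold, which says little where 0.353% of all genes were higher and 0.615% lower. Jun, 1 of the 8, is also in the list of immediate early genes. It gave 1094 units in sham and 963.2 after 10 ECS, and 2684 and 1587 in the 1 h pair, so it is no marker of identity alone. Their median was -0.12 relative to all genes. Prox1, the homeobox factor that sets granule cell fate, gave 68.6 units in sham and 57.1 after 10 ECS. C1ql3, a secreted synaptic protein of granule cells, gave 4200 and 3420 units. Npnt, the matrix protein nephronectin, was the lowest of the 9, with 487.9 and 352.8 units. In pooled tissue, fewer cells of a type and less RNA per cell cannot be told apart.

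Genes of immature neurons lay above the median. Of 26 such genes listed, 23 were on the array and 18 were measured, and 15 of the 18 (83.3%) lay above the median of all genes, 14 of them also in the 1 h pair. Their median was 0.35 above all genes at 48 h and 0.20 in the 1 h pair. Tmsb10, an actin-binding thymosin high in young neurons, was the brightest of the higher genes. It gave 1433 units in sham and 3397 after 10 ECS, a 2.37-fold difference, and 1456 after a single ECS against 3414 after 11 ECS. Its other member probe sets gave 51.7 against 107.6, 180.2 against 447.3 and 76.8 against 49.6 units, so that the last went the other way. Igfbpl1, a relative of the insulin-like growth factor binding proteins found in young neurons, gave 49.6 and 107.3 units, 2.16-fold higher. Both repeated arrays were above both others for each of these genes.

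Other genes of this group were higher by less than 2-fold. Dcx, the microtubule protein doublecortin, gave 91.1 units in sham and 137.7 after 10 ECS. Its dimmer probe set gave 80.6 and 71.2, so that its probe sets disagreed. Cd24a, a surface protein of neuroblasts, gave 162.4 and 231.6 units, and Calb2, calretinin, gave 290.1 and 364.8. Sox11, a factor of neuronal differentiation, gave 243.9 and 322.5 units at 48 h, and 498.9 and 843.0 in the 1 h pair. Marcksl1, which binds calmodulin and actin, was the lowest of the group with 1500 and 1062 units. Of 44 cell cycle genes on the array 14 were over 50 units, and their median was that of all genes, with 7 above and 7 below. The proliferation marker Mki67 was among the 30 others, with 17.3 and 23.6 units, and 4.7 and 22.2 in the 1 h pair. With so many of its genes this dim, the list cannot show whether proliferation differed.

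Neuropeptide genes made up 5 of the 27 higher genes, some of the brightest among them. Of 19 measured genes of the list, 5 were higher (26.3%, against 0.353% of all genes) and none was lower (against 0.615%). Of the 19, 16 lay above the median of all genes. Penk, the precursor of the enkephalins, gave 231.1 units in sham and 913.1 after 10 ECS, a 3.95-fold higher signal. After a single ECS it gave 320.6 and after 11 ECS 1545 units, the highest of the 4 arrays. Grp, gastrin-releasing peptide, gave 274.8 and 754.8 units, 2.75-fold higher, and in the 1 h pair 295.6 and 783.5. Npy, the peptide that dampens excitation in the hippocampus, gave 585.5 and 1320 units, 2.25-fold higher, and then 608.2 and 1350. For Grp and Npy the sham and single ECS arrays were nearly equal, and for Penk the latter was somewhat higher.

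The other 2 were dim. Gal, galanin, gave 39.0 units in sham and 113.7 after 10 ECS, a 2.92-fold higher signal, with 39.3 and 112.6 in the 1 h pair. Tac2, the precursor of neurokinin B, gave 19.2 and 63.3 units, and 21.2 and 56.9. With a floor of 50 units its log2 ratio of 1.72 became 0.34. For all 5 genes the 2 arrays after repeated ECS lay above the 2 without a course. Pdyn, the precursor of the dynorphins, went the other way, with 83.3 units in sham and 45.6 after 10 ECS. Cck, cholecystokinin, gave 2519 and 1998 units. Bdnf, a neurotrophin kept with this list for its secretion from dense-core vesicles, gave 471.2 and 640.4 units at 48 h, far below its 2069 units 1 h after a single ECS. Sst, somatostatin of hilar interneurons, gave 851.4 and 807.7 units.

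Secretory granule proteins and processing enzymes stayed near equal. The granins Chgb, with 4748 and 5460 units, and Scg2, with 1892 and 2151, were 1.15-fold and 1.14-fold higher. Pcsk5, a proprotein convertase, gave 76.6 units in sham and 122.4 after 10 ECS, and was the farthest of 7 measured enzymes. Cpe, the carboxypeptidase that trims peptides, gave 8307 and 8107 units.

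**Figure D2:**
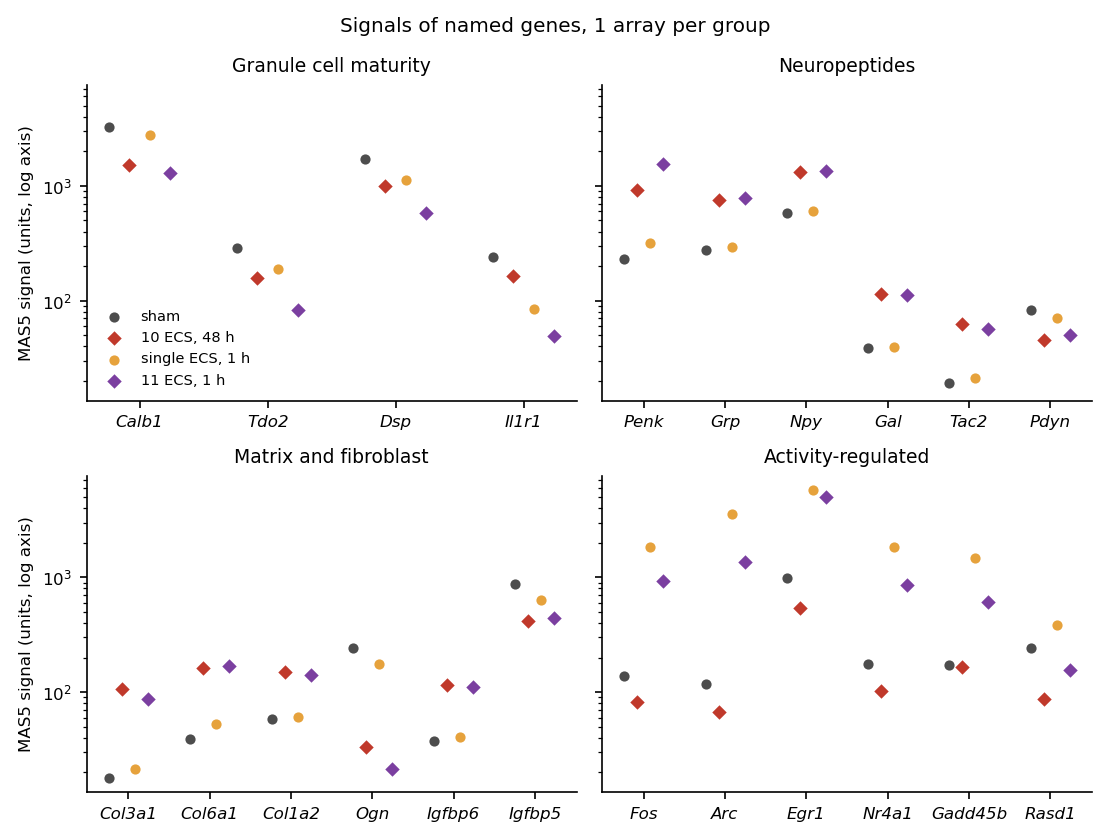
MAS5 signals (vertical log axis, units) of 22 genes on each of the 4 arrays, 1 point per array: sham, 48 h after 10 ECS, 1 h after a single ECS and 1 h after 11 ECS. Diamonds, the arrays after repeated ECS, lie above the circles for Penk, Grp, Npy, Gal and Tac2 and below them for Calb1, Tdo2 and Ogn, while Fos, Arc, Egr1, Nr4a1 and Gadd45b are high on both 1 h arrays.

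Promoter sequences of 3 genes are shown, since genes of their groups differed together or were searched for a shared motif. They are the 250 bases before the RefSeq gene start on GRCm38.p6, 5′ to 3′ on the strand of the gene: Npy at chr6:49822460-49822709 on the plus strand, Hmgcs1 at chr13:119690101-119690350 on the plus strand and Col6a1 at chr10:76726045-76726294 on the minus strand. Capitals mark a match to TCACNCCAC, a sterol regulatory element motif, in Hmgcs1 and to TGACTCA, the AP-1 motif, in Col6a1. Npy held no match to either or to the cAMP response element TGACGTCA.
Npy: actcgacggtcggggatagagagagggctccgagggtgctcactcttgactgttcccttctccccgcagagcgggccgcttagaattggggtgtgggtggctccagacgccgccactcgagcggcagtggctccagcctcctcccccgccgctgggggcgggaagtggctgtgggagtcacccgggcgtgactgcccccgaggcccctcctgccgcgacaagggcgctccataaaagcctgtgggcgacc
Hmgcs1: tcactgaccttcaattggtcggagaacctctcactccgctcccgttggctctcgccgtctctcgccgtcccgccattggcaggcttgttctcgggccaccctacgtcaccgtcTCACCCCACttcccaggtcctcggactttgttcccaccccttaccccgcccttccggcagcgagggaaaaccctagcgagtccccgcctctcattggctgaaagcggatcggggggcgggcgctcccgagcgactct
Col6a1: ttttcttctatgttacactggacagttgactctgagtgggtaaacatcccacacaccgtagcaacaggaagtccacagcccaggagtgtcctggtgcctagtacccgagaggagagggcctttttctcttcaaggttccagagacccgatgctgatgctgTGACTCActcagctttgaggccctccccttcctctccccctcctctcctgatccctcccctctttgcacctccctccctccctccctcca

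Each motif was searched on both strands of such windows. TGACGTCA was in 3 of the 16 measured neuropeptide and granin genes with a window (Chgb, Scg2 and Sst), in none of the cholesterol genes, and in 3.12% of the 6253 measured genes with one (1.77% of all 27025 genes of the table). None of the 3 was past 2-fold. Penk and Grp had no entry in the promoter table. TCACNCCAC was in 1 of 16 cholesterol genes, Hmgcs1, against 1.36% of measured genes and 1.22% of all genes of the table. TGACTCA was in 1 of 32 matrix genes, Col6a1, in 2 of 16 cholesterol genes, Dhcr7 and Msmo1, and in 3.76% of measured genes and 5.16% of all. The match in Hmgcs1 starts 137 bases before the gene start and that in Col6a1 90 bases before it, counted along the strand of the gene. A match of letters is a description and not a binding site.

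Cholesterol synthesis genes, by contrast with the peptides, differed little each but mostly in 1 direction. All 20 genes on the array were measured. None was past 2-fold, where of all genes 0.353% were higher and 0.615% lower. Of the 20, 18 (90.0%) lay above the median of all genes, 16 of them in both pairs. Their median was 0.51 above all genes at 48 h, the highest of the lists with over 3 measured genes, and 0.21 in the 1 h pair. Hmgcs1, which makes HMG-CoA for the mevalonate pathway, gave 2315 units in sham and 3337 after 10 ECS, a 1.44-fold higher signal. Its other member probe sets gave 2037 against 2751, 1962 against 3249 and 394.1 against 632.0 units. All 4 probe sets of Hmgcs1 were thus higher.

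Genes of later steps lay mostly above the median of all genes but differed in size. Fdft1, squalene synthase, gave 732.6 units in sham and 1046 after 10 ECS, and 759.4 and 982.5 in the 1 h pair. Fdps, which makes farnesyl pyrophosphate, gave 289.6 and 431.0 at 48 h, but 316.7 and 318.7 in the 1 h pair. Tm7sf2, a sterol reductase, had the largest log2 ratio, 0.64, with 99.6 and 155.0 units. Lbr, the lamin B receptor with sterol reductase activity, was the lowest, with 249.2 and 199.7. Lss, lanosterol synthase, with 153.9 and 157.6, Ebp, a sterol isomerase, with 247.2 and 254.2, and Dhcr7, the last reductase, with 226.2 and 219.5, were near equal. In fatty acid synthesis 13 of 15 genes lay above the median of all genes, with a median of 0.20, and 8 of the 13 did so in the 1 h pair too. Acss2, acetyl-CoA synthetase, was the highest of these, with 359.7 and 460.0 units. Srebf1, which codes for a factor of this pathway, was the lowest, with 299.9 and 209.1.

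Extracellular matrix genes lay on both sides and included the genes farthest from equal signal in each direction among those above the floor on both arrays. Col3a1, a fibrillar collagen, gave 17.9 units in sham and 105.9 after 10 ECS, a 5.92-fold higher signal, and 21.3 and 88.1 in the 1 h pair. It was over the limit of 50 units on the 10 ECS array alone of the first pair, and with a floor of 50 units the difference was 2.12-fold. Col6a1, a subunit of collagen VI, gave 38.8 and 163.7 units, 4.22-fold higher, and 53.2 and 169.8. Col1a2, a chain of collagen I, gave 59.0 and 150.8 units, 2.56-fold higher, and 60.6 and 141.2. For all 3 collagens both arrays after a course lay above both without one.

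Ogn, the small leucine-rich proteoglycan osteoglycin, went the opposite way. It gave 240.7 units in sham and 33.4 after 10 ECS, 7.21-fold lower, with 175.8 and 21.5 in the 1 h pair. Its other probe set gave 100.5 and 16.8 units at 48 h. Both repeated arrays lay far below the other 2.

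Collagens and Ogn are made by fibroblasts of the meninges, so the whole list of that cell type was read. Of 19 leptomeningeal genes on the array 13 were measured, 3 of them higher (23.1%, against 0.353% of all genes) and 1 lower (7.69%, against 0.615%), and 7 lay above the median of all genes. Pcolce, which helps to process procollagen, was the third of the higher genes, with 52.5 and 118.8 units. Bgn and Dcn, small proteoglycans, gave 84.7 against 135.6 and 86.2 against 131.6. Lum, lumican, with 98.7 and 88.5, and Mgp, matrix Gla protein, with 153.6 and 137.6, did not follow. The summed signal of the list was 3655 units in sham, 2839 after 10 ECS, 3254 after a single ECS and 2683 after 11 ECS. These sums are not corrected for the brighter sham array. Ptgds, the most abundant of them, gave 2458 units in sham and 1618 after 10 ECS, and 2338 and 1547 in the 1 h pair. Most of each sum was thus Ptgds, and the sums fell by no more than Ptgds alone did. The fibroblast transcription factors Foxc1, with 36.3 and 41.5, and Foxd1, with 14.8 and 16.7, stayed under 50 units on both arrays. So did the collagen Col1a1, with 4.1 units in sham and 26.9 after 10 ECS, and 10.2 and 20.1 in the 1 h pair. Its lower signals were thus below the floor, and its higher ones dim. The part of meningeal tissue in the collagen values was not tested.

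Of 7 measured insulin-like growth factor binding proteins 2 were higher (28.6%, against 0.353% of all genes) and 1 was lower (14.3%, against 0.615%). Igfbp6 gave 37.6 units in sham and 115.3 after 10 ECS, a 3.07-fold higher signal, and 40.8 and 111.8 in the 1 h pair. Igfbp5 gave 875.0 and 414.3 units, 2.11-fold lower, and 637.9 and 446.9. On arrays of the same median its log2 ratio of -1.08 became -0.90. Igfbpl1, given above with the immature neuron genes, was the other higher one. Igfbp2 and Igfbp7 were near equal, with 146.8 against 154.2 and 286.5 against 293.6 units. Igf2, the growth factor that these proteins bind, gave 142.7 units in sham and 72.4 after 10 ECS. The single ECS array gave 75.4 and the 11 ECS array 87.4, which leaves the sham array as the only high one.

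Immediate early genes lay on both sides of the median of all genes 48 h after the course. Of 22 measured transcription factors of this class, 10 lay above and 12 below the median of all genes, and only Bhlhe40 (1 of 22, against 0.615% of all genes), a clock-linked repressor, was past 2-fold, with 661.6 and 325.5 units. On arrays of the same median its log2 ratio was -0.85 in place of -1.02, and it was no longer past the limit. Fos gave 139.3 units in sham and 82.8 after 10 ECS, 1.68-fold lower, against 1833 after a single ECS and 937.2 after 11 ECS. Egr1 gave 988.4 and 538.9 units, 1.83-fold lower. Nr4a1, an orphan nuclear receptor, gave 176.8 and 103.1 units, 1.71-fold lower. Nr4a2, of the same family, gave 130.7 and 128.2. For Fos, Egr1 and Nr4a1 the 10 ECS array was the lowest of the 4. Ier5 was the highest of the class, with 342.6 and 522.4 units, and its other member probe set gave 39.3 and 61.6. A further 11 genes of the list, Fosb, Egr2 and Atf3 among them, were not over 50 units on either array.

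Activity-regulated effector genes spread to both sides. Arc, a regulator of AMPA receptor traffic, gave 118.7 units in sham and 67.5 after 10 ECS, 1.76-fold lower, against 3570 after a single ECS. Gadd45b, which acts in DNA demethylation, gave 172.1 and 164.2 units. Rasd1, a Ras-like protein induced by dexamethasone, gave 242.8 and 88.0 units, 2.76-fold lower, and 383.2 and 156.1 in the 1 h pair. Nptx2, a secreted pentraxin that clusters AMPA receptors, gave 72.1 units in sham and 126.6 after 10 ECS. Rgs4, a brake on G protein signalling, was the highest, with 435.0 and 813.4 units, and its other member probe sets were higher too, at 182.8 against 268.5 and 38.3 against 76.3. Of 23 measured effectors none was 2-fold higher (against 0.353% of all genes) and 2, Rasd1 and Cdkn1a, were lower (8.7%, against 0.615%). With a floor of 50 units the log2 ratio of Cdkn1a was -0.86 in place of -1.18, which leaves Rasd1 alone.

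Glucocorticoid target genes lay mostly below the median. Of 20 measured genes 17 did so, 14 of them in both pairs, and 3 were lower (15%, against 0.615% of all genes). Their median was -0.33 relative to all genes at 48 h and -0.22 in the 1 h pair. Zbtb16, a zinc finger factor, gave 460.9 units in sham and 200.6 after 10 ECS, 2.30-fold lower, but 255.4 and 221.3 in the 1 h pair. Cdkn1a, the cyclin-dependent kinase inhibitor p21, gave 90.9 and 40.0 units, and 160.6 and 212.4. It fell short of 2-fold with a floor of 50 units, at a log2 ratio of -0.86, and with 16 added units, at -0.93. Sult1a1, a sulfotransferase, gave 154.4 and 59.5 units, 2.59-fold lower, and 99.4 and 138.0. In the 1 h pair none of these 3 genes was past 2-fold, and 2 were higher after 11 ECS.

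Several genes of this list that were bright in sham gave less signal after 10 ECS, by under 2-fold. Tsc22d3, the leucine zipper protein GILZ, gave 879.1 units in sham and 496.1 after 10 ECS. Its other member probe sets gave 225.2 against 165.0 and 90.4 against 67.1 units. Mt2 gave 4086 and 2452 units and Mt1 5555 and 3866. Both are metallothioneins, whose near-identical sequences leave it uncertain which copy was read. Fkbp5, a chaperone of the receptor, gave 581.9 and 460.5 units, and the receptor Nr3c1 gave 426.5 and 397.7. Hsd11b1, which regenerates corticosterone, was equal at 520.2 and 525.4, and both it and Nr3c1 lay above the median of all genes.

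Calcium handling and synapse genes held a few lower members in otherwise even lists. Ryr1, a calcium release channel of internal stores, gave 143.2 units in sham and 48.7 after 10 ECS, 2.94-fold lower, and 89.5 and 40.5 in the 1 h pair. Ryr2 and Ryr3, its relatives, gave 1436 against 1294 and 424.8 against 341.9 units. Ryr1 and Calb1 were the 2 of 34 measured calcium genes that were lower (5.88%, against 0.615% of all genes), and Ryr1 alone was so on arrays of the same median. Rph3a, the vesicle protein rabphilin, gave 229.8 and 104.0 units, 2.21-fold lower, and was the only one past 2-fold of 33 vesicle genes (against 0.615% of all genes). On arrays of the same median its log2 ratio of -1.14 became -0.97. Cplx2, a complexin that clamps vesicle fusion, gave 3557 and 2135 units, and Syt1, the calcium sensor of release, gave 313.7 and 200.9.

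The lists of glutamate receptors, GABA receptors, potassium and sodium channels and monoamine and peptide receptors had no gene past 2-fold. This is by the brightest probe set, and of all genes 0.353% were higher and 0.615% lower. Kcnip3, of the channel list, gave 50.1 units in sham and 70.9 after 10 ECS. Its other member probe set gave 10.2, below the floor, and 66.3, at least 5.52-fold higher, but 6.2 and 11.7 in the 1 h pair. Of 8 measured glutamate receptor genes 7 lay below the median of all genes, with Gria3 at 906.0 units in sham and 603.2 after 10 ECS and Gria2 at 4563 and 3890. Of 10 GABA receptor genes 7 lay below it, with Gabrd, a subunit of tonic inhibition, at 155.2 and 99.3. Of 28 potassium and sodium channel genes 17 did. Trhr, the receptor of thyrotropin-releasing hormone, was the lowest of 14 peptide and monoamine receptors, with 284.3 and 146.5 units. In the Wnt pathway 2 of 17 genes were lower, against 0.615% of all genes, and the secreted antagonist Frzb gave 558.1 and 255.2 units, 2.19-fold lower, and 467.2 and 276.6 in the 1 h pair. Its log2 ratio of -1.13 became -0.95 on arrays of the same median.

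Of the named genes not yet given, some were far from equal signal. Rprm, reprimo, a p53 target that halts the cell cycle, gave 315.6 units in sham and 978.2 after 10 ECS, a 3.10-fold higher signal, and 193.5 and 727.1 in the 1 h pair. Pik3r1, the regulatory subunit of PI 3-kinase and the 1 higher gene of 40 in the list of phosphoinositide, cyclic nucleotide and Ras signalling (2.5%, against 0.353% of all genes), gave 157.9 and 351.1 units. That was 2.22-fold higher, but its other member probe set gave 123.7 and 121.6, and the median of both was 1.48-fold. Rflnb, refilin B, gave 96.1 and 223.8 units and was equal in the 1 h pair, at 76.8 and 79.8. Rflnb was thus high on the 10 ECS array alone.

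Lower genes of no list were Tenm1, Psmc4 and Nol6 among others. Tenm1, a teneurin of neuronal membranes, gave 139.7 units in sham and 51.2 after 10 ECS, 2.73-fold lower, and 103.3 and 36.2. Psmc4, a proteasome ATPase, gave 1165 and 430.3 units in its brightest probe set, 2.71-fold lower, but 535.7 and 470.1 in the other. Nol6, a nucleolar protein, gave 107.9 units in sham and 9.7 after 10 ECS, below the floor of 12, so that it was at least 8.99-fold lower, or 2.16-fold with a floor of 50 units. Its other probe set gave 50 and 29.5 units. It gave 43.6 and 53.3 in the 1 h pair. Psmc4 and Nol6 thus rest on 1 probe set or on 1 array.

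The genes past 2-fold at 48 h were then read in the pair of arrays at 1 h, whose ratio did not enter that count. Its signals did help to choose the probe set of each gene, and its ratio some of the genes named above. Of the 27 higher genes 23 lay above the median of all genes in that pair, 19 were at least 1.5-fold higher there (70.4%, against 2.15% of all genes) and 17 at least 2-fold (63.0%, against 0.458%). Of the 47 lower genes 38 lay below the median there, 20 were at least 1.5-fold lower (42.6%, against 2.69%) and 10 at least 2-fold (21.3%, against 0.523%). The median log2 ratio of the higher genes was 1.39 at 48 h and 1.23 in the 1 h pair. That of the lower genes was -1.20 and -0.50. Among the 15 higher genes with over 100 units on the brighter array, all 15 were on the same side in both pairs and 12 past 2-fold in both. Among 28 lower genes of that brightness, 25 were on the same side and 7 past 2-fold in both. No gene was 2-fold apart in opposite directions.

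Across the 7637 genes above the floor on all 4 arrays, the 2 log2 ratios had a Pearson r of 0.42 and a Spearman rho of 0.33. This is a description across genes, which are not independent replicates, and the points share the probes of the array. The 1 h pair had its own genes, Btg2 being the farthest of the immediate early class: it gave 111.7 and 122.1 units at 48 h against 1028 after a single ECS and 159.4 after 11 ECS.

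**Figure D3:**
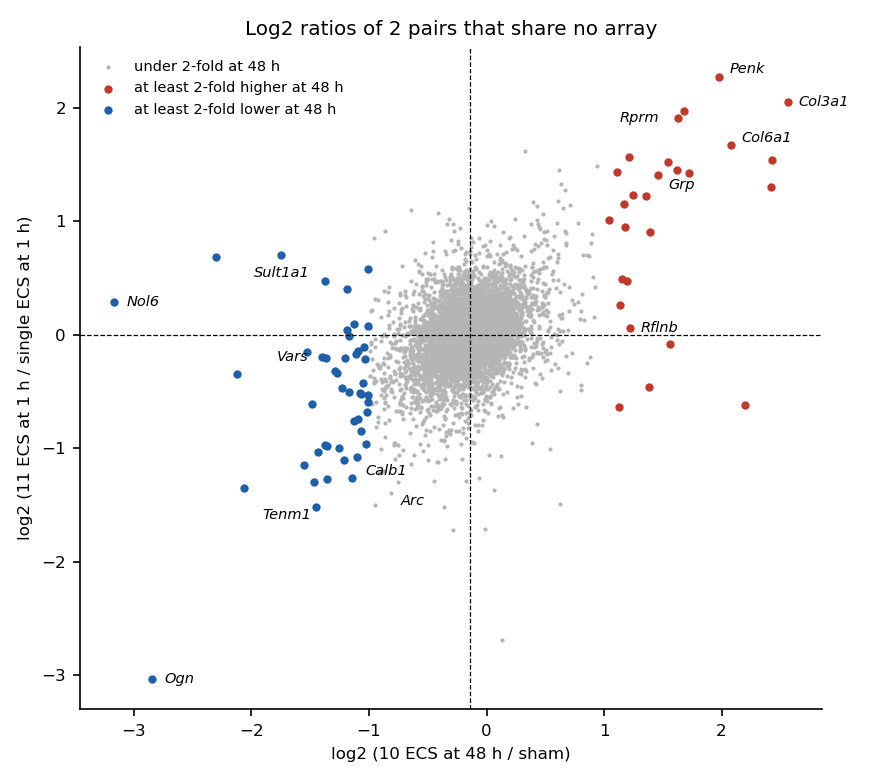
Log2 ratio of 11 ECS over a single ECS at 1 h (vertical axis) against that of 10 ECS at 48 h over sham (horizontal axis), 1 point per gene, with the median of all genes dashed on each axis. Of the 27 higher genes at 48 h 23 lie above the horizontal dashed line, and of the 47 lower genes 38 lie below it. Ogn, Penk and Col3a1 are far out in both pairs, and Rflnb, Nol6 and Sult1a1 in 1 of them.

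Markers of the other cells of the tissue were read as whole lists. Oligodendrocyte genes lay below the median in 11 of 17 cases, 6 of them in both pairs. Mobp, the lowest, gave 921.9 units in sham and 604.1 after 10 ECS, but 602.7 and 615.5 in the 1 h pair. Mbp, with 5089 and 4906 units, lay above the median. The summed signal of the list was 10560 units in sham and 9167 after 10 ECS, not corrected for the brighter sham array. Microglial genes lay above the median in 11 of 15 cases, with a median of 0.08 over all genes and Csf1r at 1218 and 1142 units. Endothelial and mural genes did in 12 of 17 cases, with a median of 0.04. Interneuron and mossy cell genes lay below it in 10 of 16 cases, with Gad1 at 3376 and 2940. Of 15 choroid plexus genes on the array 3 were over 50 units on either array, with Ttr, the transthyretin of that tissue, at 67.2 and 103.4 and, in the 1 h pair, at 215.9 and 76.9. Kl, klotho, another of the 3, went the other way with 74.3 units in sham and 26.6 after 10 ECS, a 2.79-fold difference that was 1.49-fold with a floor of 50 units. Of the 13 genes of CA1 and CA3 pyramidal cells on the array 11 were measured. None of the 11 was past 2-fold, which says little where 0.353% of all genes were higher and 0.615% lower.

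Astrocyte genes were even as a group, with 11 of 20 above the median of all genes, while Gfap and Serpina3n, genes of reactive astrocytes, were its highest. Gfap, the intermediate filament, gave 49.3 units in sham and 114.1 after 10 ECS, a 2.31-fold higher signal, and 45.6 and 135.0 in the 1 h pair. Its other probe set gave 56.3 and 85.9, and the median of both probe sets had a log2 ratio of 0.91, short of 2-fold. Serpina3n, a serine protease inhibitor, gave 91.2 and 149.5 units, and 73.7 and 162.4. Aqp4, the water channel of astrocyte endfeet, gave 1077 and 1401 units. Vim and Osmr of the same list differed less, with 430.9 against 509.2 and 55.1 against 51.1 units. The other 9 genes lay below the median, the lowest being Mt2 and then Gjb6, with 752.0 and 491.9 units. Another 6 genes of the list, Lcn2, Cd44 and Timp1 among them, were not over 50 units on either array. The summed signal of the list was 38380 units in sham and 31700 after 10 ECS, not corrected for the brighter sham array.

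Genes of the interferon response and antigen presentation lay above the median in 12 of 16 measured cases, 9 of them in both pairs, with a median of 0.30. H2-K1 and H2-D1 gave 216.8 against 282.5 and 197.2 against 239.3 units. These class I genes are near-identical, so the probes may read both. The list also held lower members, of which Iigp1, an immunity-related GTPase, gave 87.9 and 52.8 units, Irf9, an interferon signalling factor, 80.7 and 48.5, and Ifit2 50.7 and 35.8. B2m, the light chain of class I molecules, gave 816.1 units in sham and 1004 after 10 ECS. Another 20 genes of the list, Ifit1, Irf7 and Cxcl10 among them, were not over 50 units on either array. Respiratory chain genes took opposite sides in the 2 pairs: 48 of 60 lay above the median of all genes at 48 h, by a median of 0.08, and 44 of 60 lay below it in the 1 h pair.

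**Figure D4:**
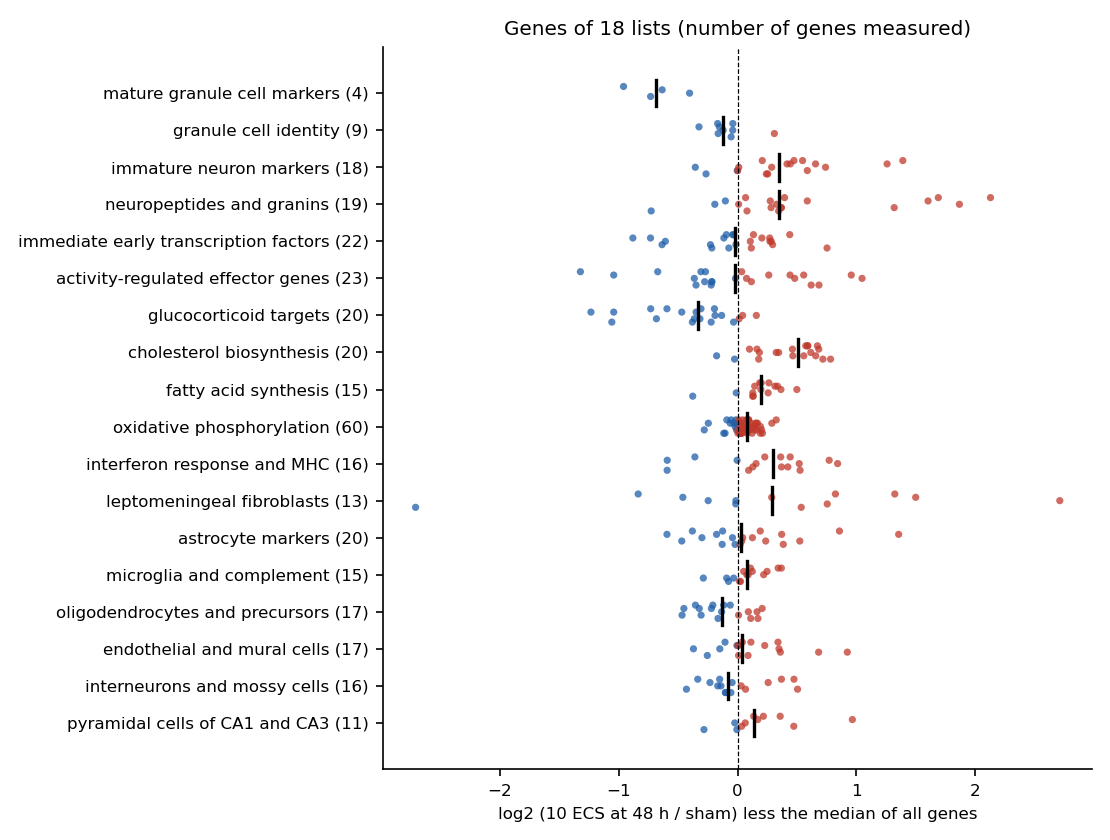
Log2 ratio of 10 ECS at 48 h over sham, less the median of all genes (horizontal axis), for the measured genes of 18 lists, 1 point per gene, with the number of genes in brackets. Black bars are list medians, from -0.68 for mature granule cell markers to 0.51 for cholesterol biosynthesis, and points right of the dashed line at 0 are above the median of all genes.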

How the data were processed

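RNA of the dentate gyrus was measured on Affymetrix Mouse Genome 430A 2.0 arrays, 1 array for each of 4 groups and 3 pooled mice per array. Per the labels, 100 ng of pooled RNA was amplified by in vitro transcription from the 3' end, and Microarray Suite (MAS5) turned each probe set into 1 linear signal, which the authors deposited as intensities. The sources used here give no scaling target. No detection call was used, so a dim signal is not shown to be above background, and the number of arrays limits the precision.

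Groups were taken from the sample titles. Of 22626 probe sets besides 64 controls, 20380 had 1 gene symbol in the platform annotation, 691 several and 1555 none. Log2 ratios were taken after raising signals to the 25th percentile of all signals, 12 units. A gene was read by the member probe set with the highest mean over the 4 arrays. With 1 array a group there was no test, no interval over mice and no paired analysis. The script was tested on simulated data. The members and the 36 gene lists, of 1123 symbols, were chosen with earlier results of these data known.

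Among genes with both signals above the floor and the brighter one at 100 units or more, the 15 at each end of the log2 ratios were named. To these were added the 12 highest and 12 lowest by the smaller of the ratios of both pairs where the signs were equal. Further named genes were up to 5 members of each list farthest from 0, the bounds farthest from 0, genes past 2-fold in opposite directions in the 2 pairs, and Calb1, Tdo2, Dsp, Il1r1, Fos, Gadd45b, Nr4a1, Arc and Egr1. Other genes in the text are list members chosen for their role after their values were seen. The 8 alternatives were 3 scalings (same median, same mean after trimming 2% at each end, quantile normalization), a floor of 50 units, 16 added units, a filter of 100 units or none, and the median over a gene's probe sets. Promoter windows came from RefSeq tables on GRCm38.p6, matched by symbol for 6253 of 7645 genes. Python 3.11.15, numpy 2.4.6, pandas 2.3.3 and matplotlib 3.10.9 were used.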

Additional observations from a re-analysis of the deposited data

How the results depend on the processing

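Of the 41 named genes past 2-fold, 22 stayed past it in the same direction under all 6 scalings, floors and probe set choices, 11 of them higher (Col1a2, Col3a1, Col6a1, Gal, Grp, Igfbp6, Npy, Penk, Rflnb, Rprm and Tmsb10) and 11 lower (Cyp4f15, Ltk, Nol6, Ogn, Rasd1, Ryr1, Sp4, Sult1a1, Tenm1, Vars and Zbtb16). None of the 41 changed sign. A floor or added units can only bring a ratio nearer to equal, and the scalings shifted genes by little. The kept signs thus give little support for the directions. Calb1, Bhlhe40, Frzb, Igfbp5, Il33, Mrpl33, Prkcd and Rph3a fell short of 2-fold on arrays scaled to the same median. Fst, Gys1, Kl, Tac2, Cdkn1a and Nkd2 fell short with a floor of 50 units, Gfap, Igfbpl1 and Pcolce with 16 added units, and Pik3r1 and Psmc4 with the median over probe sets.

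Genes at least 2-fold higher numbered 27, against 15 with a floor of 50 units, 15 with the filter of 100 units and 73 with no filter. Lower genes numbered 47, against 24 with 16 added units, 28 with the floor of 50, 28 with the filter of 100, 124 with no filter, 30 after quantile normalization, 29 with equal trimmed means and 26 with equal medians. Probe sets 2-fold higher numbered 36, against 22 with 16 added units, 17 with the floor of 50, 17 with the filter of 100, 118 with no filter and 56 with equal medians. Lower probe sets numbered 104, against 49, 54, 54, 268 and 58 in that order, 67 after quantile normalization and 66 with equal trimmed means. Among genes past 2-fold the higher ones made up 36.5%, against 59.4% with equal medians, 55.2% after quantile normalization and 54.7% with equal trimmed means. Higher genes on the same side of the median in the 1 h pair made up 85.2%, and 100.0% with the floor of 50 units.

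Of 288 list medians relative to all genes, 284 kept their value within the spread between probe sets. Scaling to the same median or trimmed mean shifts all genes alike, so it could hardly move these values. The spread is also wider than many of the medians, so the count does not show that they are stable. The median of 3 choroid plexus genes was 0.58, and 0.17 with the floor of 50 and 0.071 with no filter. With no filter those of glycolysis (0.13) and of pyramidal cells (0.14) became -0.011 and -0.0077. The causes were not tested, apart from the added genes that a missing filter brings in. Signals near the floor limit the ratios of dim genes. No paired analysis was possible because each group was 1 array.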

Other observations

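The remaining gene groups were read in the same way, relative to the median of all genes. Of 19 measured neurotrophin and growth factor genes 7 lay above that median and 12 below. Fst, the activin binder follistatin, gave 50.2 units in sham and 7.6 after 10 ECS, below the floor, and 30.6 and 0.9 in the 1 h pair. With a floor of 50 units its log2 ratio of -2.06 became -0.0058. In the same list Tgfa, an epidermal growth factor receptor ligand, gave 435.6 and 278.4 and Ntrk3, the receptor of neurotrophin 3, gave 289.4 and 202.8. Inhba, the activin A subunit, gave 126.1 and 114.0 units at 48 h, against 947.1 at 1 h after a single ECS.

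Of 18 circadian clock genes 7 lay above the median and 11 below. Npas2 gave 76.5 units in sham and 44.7 after 10 ECS, and Hlf gave 440.0 and 280.6 in its brightest probe set and 498.9 and 169.1, 2.95-fold lower, in the other. Both are transcription factors of the clock or its output. Of 27 genes of glucose transport and glycolysis 18 lay above the median, by 0.13 at the list's median. Gys1, glycogen synthase, was at the floor after 10 ECS, with 52.2 units in sham and 9.2, and its log2 ratio of -2.12 became -0.062 with a floor of 50 units. Slc2a1, the glucose transporter of the blood-brain barrier, gave 1085 and 759.4.

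Of 32 chaperone genes 18, of 33 axon guidance genes 15, of 40 extracellular matrix genes 22 and of 40 genes of phosphoinositide, cyclic nucleotide and Ras signalling 22 lay above the median. Dnajc3, an inhibitor of the kinase PERK, gave 524.7 units in sham and 333.2 after 10 ECS. Sema4b, a semaphorin, gave 141.4 and 82.6, and Prkcd, protein kinase C delta, gave 142.6 and 66.9, 2.13-fold lower, with a log2 ratio of -1.09 that became -0.91 on arrays of the same median. Of 17 measured Wnt pathway genes 12 lay below the median, with Frzb and Nkd2, an inhibitor of Dishevelled, past 2-fold, and Nkd2 gave 51.2 and 21.8 units. The log2 ratio of Nkd2 was -1.23, and -0.034 with a floor of 50 units and -0.83 with 16 added units.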
